A study of Arabidopsis thaliana with 6 samples.

Results

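AT1G33430, known as KNS4, and INP1 (AT4G22600) are genes that shape the patterned outer wall of pollen. Both were chosen by name, as 2 of the 22746 probe sets on the array that are not Affymetrix controls, and each had a single probe set, 256481_at for KNS4 and 254322_at for INP1. RNA levels were read from dissected *Arabidopsis thaliana* anthers in 3 samples labelled as the myb80 mutant (replicates 1, 4 and 5-2) and 3 labelled wild type (replicates 2, 5 and 6). No other treatment or genotype is named for either group, and the labels give neither the mutant allele nor the plants' age or background accession. Each sample came from roughly 1000 anthers at stages 5 to 8, which span pollen mother cells, tetrads and released microspores, hybridised to 1 array. MYB80 is a MYB-type regulator that acts in the tapetum, whose cells nourish the microspores. No probe set carries its name in the probe table used here, so the labels were not checked on the mutated gene.

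The pollen wall has an outer layer, the exine, built on a template laid down around each microspore while the tetrad is still enclosed in callose. KNS4 encodes a galactosyltransferase of the GT31 family that extends the sugar chains of arabinogalactan, and pollen of plants without it has a thin, misformed exine. INP1 acts at the places where exine is not laid down, the apertures. In *Arabidopsis* the INP1 protein marks domains of the microspore membrane in the tetrad, and pollen without INP1 has no apertures.

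The median deposited intensity ran from 64.8 on mutant array 5-2 to 81.1 on mutant array 4. Each array was multiplied by 1 factor to reach a common median, so the median scaled intensity of 72.8 on every array is a result of the scaling. After it, from 19.0% to 22.0% of probe sets lay at or under a floor of 16, to which low values were raised. A9, a tapetal gene that marks anthers, had scaled intensities from 2150 to 14470 over the 6 arrays. What the name 5-2 stands for is not given, and it was treated as a separate replicate. The labels call the replicates biological but do not say whether plants were grown separately. The p-values below therefore weigh differences against the variation among these samples only. In limma the variance of a probe set is also drawn in part from the other probe sets, and the number of arrays limits precision.

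KNS4 was a bright probe set on every array, and all 3 mutant arrays lay above all 3 wild-type arrays. In wild-type anthers its scaled intensity was 4675 in replicate 2, 5521 in replicate 5 and 5694 in replicate 6. In the mutant it was 7370 in replicate 1, 6731 in replicate 4 and 9848 in replicate 5-2. The lowest mutant array thus stood above the highest wild-type array, and replicate 5-2 was the highest of all. The deposited intensities, before any scaling, had the same gap, from 4466 to 5747 in wild type and from 7502 to 8771 in the mutant. Each wild-type value was at least 64.2 times the median of its array, although intensities of different probe sets also depend on the probes and do not rank transcripts.

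The geometric mean of KNS4 was 5277 in wild type and 7876 in the mutant, a ratio of 1.49. On the log2 scale the mean was 12.37 ± 0.15 (SD, n = 3) in wild type and 12.94 ± 0.29 (SD, n = 3) in the mutant. The difference was 0.58 ± 0.27 (SE), with a 95% interval from -0.03 to 1.18, or from 0.980 to 2.27 as a ratio. It did not pass limma's test over the 15164 brighter probe sets (unadjusted p = 0.0597, Benjamini-Hochberg adjusted p = 0.434). In that test 2.05% of probe sets were called at adjusted p under 0.05, with 0.448% higher and 1.60% lower in the mutant. An exact two-sided permutation test on KNS4 alone gave p = 0.1, the smallest that 3 arrays against 3 allow. A level in the mutant equal to wild type and one more than 2 times as high both lie within the ratio's interval.

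**Figure D1:**
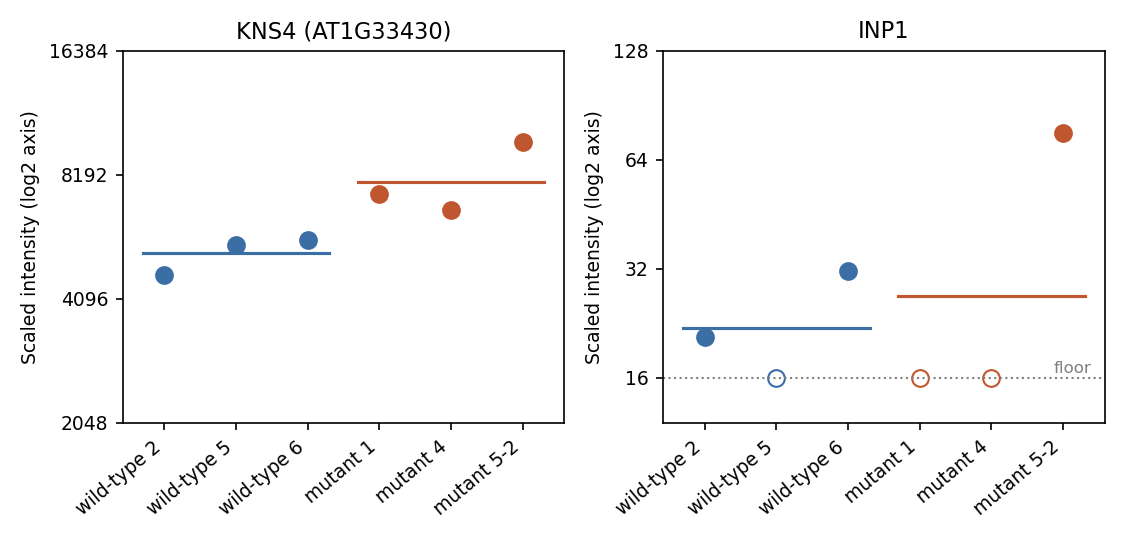
Scaled intensity of the KNS4 and INP1 probe sets on each array, on log2 axes, with wild type in blue and the mutant in orange; lines are geometric means and open circles are values raised to the floor of 16. KNS4 ran from 4675 to 5694 in wild type and from 6731 to 9848 in the mutant, whereas INP1 stood at the floor on 3 of the 6 arrays.

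A gap between the groups was common on these arrays. Every mutant array lay above every wild-type array in 8.38% of the 15164 probe sets and below it in 8.90%, so that the groups did not overlap in either direction in 17.3%. A log2 difference at least as high as that of KNS4 was found in 9.56% of them, and one at least as large in either direction in 21.0%. The median over all 15164 was 0.04. KNS4 was not called in any of the tests that left out 1 array, where its difference ran from 0.42 without mutant replicate 5-2 to 0.69 without mutant replicate 4 (limma adjusted p from 0.324 to 0.737). The number of probe sets called over the array varied widely with the array left out, against 311 with all arrays. It was 534 without mutant replicate 4, 175 without mutant replicate 1 and 77 without wild-type replicate 6. It was 54 without wild-type replicate 2, 39 without mutant replicate 5-2 and 32 without wild-type replicate 5. With no filter on dim probe sets the SE of KNS4 was 0.18 and the 95% interval ran from 0.11 to 1.04 (unadjusted p = 0.0242, limma adjusted p = 0.382). An unadjusted p under 0.05 was reached there by 10.2% of 22746 probe sets.

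**Figure D2:**
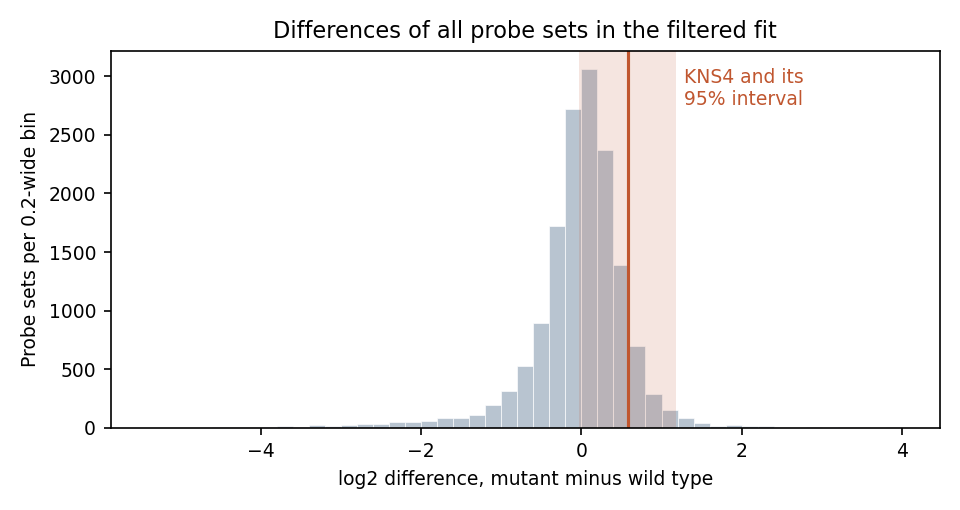
Number of probe sets in each 0.2-wide bin of log2 difference, mutant minus wild type, over the 15164 probe sets of the filtered test; the orange line is KNS4 at 0.58 and the shaded band its 95% interval from -0.03 to 1.18. KNS4 lies on the upper flank of the distribution, with 9.56% of probe sets at or above it.

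INP1 was dim on 5 of the 6 arrays, 3 of which lay under the floor. In wild type its scaled intensity was 20.7 in replicate 2, 7.99 in replicate 5 and 31.6 in replicate 6. In the mutant it was 8.73 in replicate 1, 9.97 in replicate 4 and 75.9 in replicate 5-2. Mutant replicate 5-2 alone was above the array median of 72.8, by a factor of 1.04, and the groups overlapped. The array with the highest INP1 value was also the one with the highest KNS4 value.

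With values raised to the floor, the log2 mean of INP1 was 4.45 ± 0.50 (SD, n = 3) in wild type and 4.75 ± 1.297 (SD, n = 3) in the mutant. Its mean over the 6 arrays corresponds to an intensity of 24.3, below the limit of 34.4 for the brighter 2 in 3 probe sets, so it was tested only without that filter. The difference was 0.30 ± 0.74 (SE), with a 95% interval from -1.63 to 2.23 (limma adjusted p = 0.97 over 22746 probe sets, of which 0.0132% were called). An exact two-sided permutation test gave p = 1. Without mutant replicate 5-2 the difference was -0.47, with both other mutant arrays at the floor, so its sign rested on that array. A change of INP1 in either direction, up to 4.68-fold upward or a fall to 0.322 of the wild-type level, lies within the interval. Without the floor the log2 difference was 0.11, so the size of the value depended on how the lowest intensities were treated. Detection calls were not used here, and the data do not say whether INP1 transcripts were present in wild-type anthers at these stages. Bulk anthers also leave fewer cells of a type and less RNA per cell indistinguishable, for INP1 and for KNS4.

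KNS4 and INP1 were set beside lists of genes of the same processes, 66 genes in all. Of these, 21 had a probe set named for them alone and 18 were bright enough for the filtered test. None of the 18 was called, where 2.05% of the 15164 probe sets were, so few calls would be looked for in a list of this size. In the exine patterning list 3 of 15 genes were measured, namely KNS4, SWEET8 and SWEET13, with a median log2 difference of -0.10. SWEET8 (also RPG1), a sugar transporter needed for exine patterning, had overlapping groups. Its scaled intensity was 8104, 7143 and 9484 in wild-type samples 2, 5 and 6. The mutant values were 6981, 8067 and 7964 in samples 1, 4 and 5-2, within or just under the wild-type range. The difference of SWEET8 was -0.10 ± 0.26 (SE, limma adjusted p = 0.94), and 0.03 after quantile normalization. SWEET13 (also RPG2), its relative in the same process, differed by -0.35 ± 0.39 (adjusted p = 0.815), with overlapping groups. The sporopollenin synthesis genes and the callose and tetrad separation genes had no probe set named for them alone. Nor had the arabinogalactan proteins of pollen or the D6 protein kinases, of which D6PKL3 was listed for aperture formation. None of these genes was analysed here.

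The GT31 family, to which KNS4 belongs, was better covered, with 16 of 20 listed genes measured, all of them in the filtered test. None was called. Of the other 15, 10 were above and 5 below wild type, with a median log2 difference of 0.12 against 0.04 over the 15164 probe sets. The groups did not overlap in 4 of the 16, or 25%, where 17.3% of the 15164 probe sets did not overlap. The limma adjusted p of the other 15 ran from 0.305 to 0.996.

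KNS4 extends arabinogalactan chains that other members of the family start. GALT3, GALT4, GALT5 and GALT6 and HPGT1, HPGT2 and HPGT3 add the first galactose to hydroxyproline of the protein backbone. Among these, GALT5 (AT1G74800) had all mutant arrays above wild type, at 180.2, 186 and 185 in replicates 1, 4 and 5-2. Its wild-type values were 135, 119.6 and 89.0 in replicates 2, 5 and 6. The log2 difference of GALT5 was 0.70 ± 0.27 (SE, limma adjusted p = 0.305). GALT4 (AT1G27120) lay the other way, at 360.1, 263 and 350.1 in the mutant against 381, 807 and 541 in wild type. Its difference was -0.78 ± 0.33 (adjusted p = 0.379), and its groups overlapped on the intensities as deposited and after quantile normalization. Neither GALT4 nor GALT5 passed the test. The other 5 had overlapping groups and log2 differences from -0.15 for HPGT1 to 0.30 for GALT3, with HPGT2, HPGT3 and GALT6 between them.

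Of the family members with no chain-starting role listed above, AT2G32430 also kept its groups apart, from 83.5 to 105 in the mutant and from 49.2 to 75.8 in wild type. The log2 difference of AT2G32430 was 0.65 ± 0.28 (SE, limma adjusted p = 0.376). AT1G22015 had the highest difference of the family, 0.84 ± 0.43 (adjusted p = 0.489). It was 865 in mutant replicate 5-2, 331 and 283 in the other 2 mutant samples, and from 203 to 315 in wild type. As for INP1, mutant replicate 5-2 stood above the others. The groups overlapped here, though not on the intensities as deposited or after quantile normalization. In the remaining 6, AT1G05170, AT1G11730, AT1G53290, AT1G77810, AT3G14960 and AT4G26940, the groups overlapped, with log2 differences from -0.15 to 0.43.

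**Figure D3:**
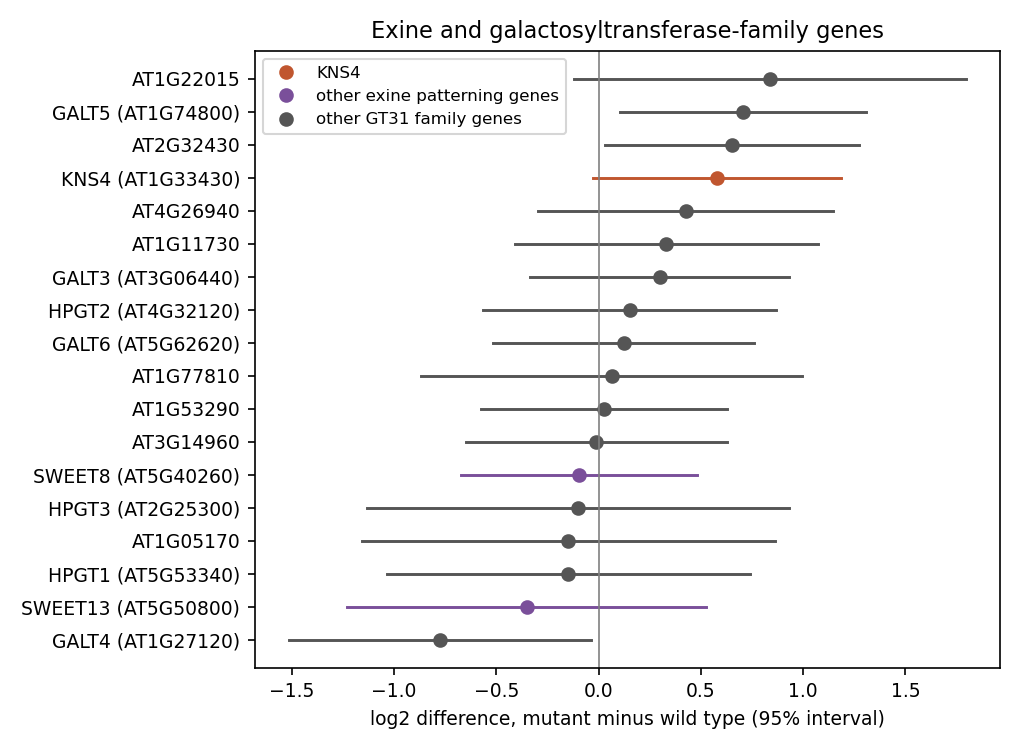
Log2 difference, mutant minus wild type, with 95% intervals from limma, for the 18 exine patterning and GT31 family genes in the filtered test. KNS4 (orange, 0.58) lies in the upper part of a range that runs from -0.78 (GALT4) to 0.84 (AT1G22015). None was called at adjusted p under 0.05, where 2.05% of the 15164 probe sets were.

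INP1 carries a DOG1 domain, named after a seed dormancy protein. Of 9 listed genes with this domain 3 were measured, and none was bright enough for the filtered test. AT3G14880 stood at the floor on 3 of the 6 arrays and reached 31.5 at most, and AT4G18650 stood there on 2 and reached 41.7. Their log2 differences were 0.25 ± 0.32 and -0.57 ± 0.37 (SE, limma adjusted p = 0.847 and 0.706 over all 22746 probe sets). In both the groups overlapped, as they did in INP1.

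The genes whose levels ran most like that of KNS4 were taken by Pearson's r over the 6 arrays among 8428 bright probe sets with 1 gene. They were AT2G44530 (r = 0.995), AT3G18560 (r = 0.983), AT4G29700 (r = 0.982), AT1G75730 (r = 0.982) and UPP, a uracil phosphoribosyltransferase (r = 0.978). An r of at least 0.95 was found for 38 probe sets. The likeness describes 6 arrays that fall into the compared groups. All 5 were highest in mutant replicate 5-2 and higher on every mutant array than on any wild-type array, as 8.38% of the 15164 probe sets were on the latter count. They share this pattern with KNS4 because they were chosen for it, so it is not a separate result. Only AT3G18560 was called, where 2.05% of the 15164 probe sets were. It stood at 200.2, 143 and 340 in the mutant (1, 4 and 5-2) against 51.1, 62.0 and 85.6 in wild type (2, 5 and 6). It rose with a log2 difference of 1.72 ± 0.37 (SE, limma adjusted p = 0.0496). For INP1 the same rule gave AT5G42220 (r = 0.990), AT4G09500 (r = 0.989), AT3G30300 (r = 0.978), AT3G58570 (r = 0.978) and AT3G26950 (r = 0.972). Each was highest in mutant replicate 5-2, which again follows from the choice. None of them was called, with log2 differences from 0.00 to 0.19. Of the 6 INP1 values that entered r, 3 are the floor itself. Mutant replicate 5-2 stood at 75.9, against 20.7 and 31.6 in wild-type replicates 2 and 6, so this likeness rests largely on that mutant array.

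The tapetum, the source of much of the wall material, was followed by its markers. Of 11 tapetum markers 5 were measured, with a median log2 difference of 1.28. Of the 5, 4 lay above wild type, as did 53.9% of all 15164 probe sets. None was called, against 2.05% of the 15164. The groups did not overlap in 1 of the 5, or 20%, where 17.3% of the 15164 did not overlap. AMS, a transcription factor of tapetum development, had scaled intensities of 2037, 1173 and 3359 on mutant arrays 1, 4 and 5-2, against 847, 774 and 863 on wild-type arrays 2, 5 and 6. Like KNS4, it was highest in mutant replicate 5-2 and lowest of the mutant arrays in replicate 4, with every mutant array above wild type (log2 difference 1.28 ± 0.38, SE, limma adjusted p = 0.148). A9 had the same order within the mutant, at 10255, 4850 and 14470, but overlapped wild type, while ATA27, a tapetal glucosidase gene, differed by -0.69 ± 0.33 (adjusted p = 0.463). On the intensities as deposited and after quantile normalization the groups did not overlap in A9 or in ATA27, with the mutant above in A9 and below in ATA27. The summed intensity of the 5 ran from 10209 to 25563 in the mutant and from 9685 to 14705 in wild type. The part of tapetal RNA in the KNS4 difference was not tested.

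**Figure D4:**
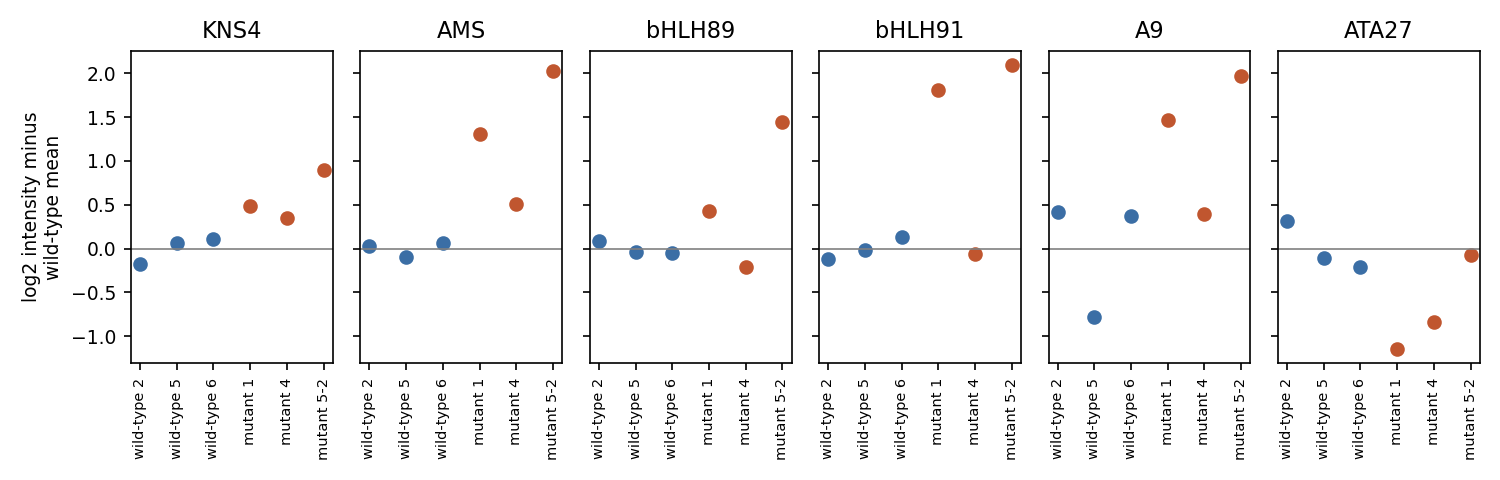
Log2 scaled intensity on each array minus the wild-type mean, for KNS4 and the 5 measured tapetum markers, with wild type in blue and the mutant in orange. In KNS4, AMS, bHLH89, bHLH91 and A9 mutant replicate 5-2 is the highest array, while in ATA27 the mutant arrays lie below the wild-type mean.

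Markers of microspores and pollen lay on the other side of wild type from KNS4. Of 14, 7 were measured and all 7 lay below wild type, with a median log2 difference of -2.21, where 46.1% of all 15164 probe sets lay below. AGL104 and ACT12, 2 of the 7, were called lower, against 1.60% of the 15164 probe sets. The groups did not overlap in 6 of the 7, where 8.90% of the 15164 probe sets had every mutant array below every wild-type array. They did not overlap in 4 on the intensities as deposited and in 5 after quantile normalization, for which the share over all probe sets was not counted. Their summed intensity ran from 386 to 1986 in the mutant and from 4049 to 6198 in wild type, most of the wild-type sum being that of AT5G45880. Over the other 6 it ran from 265 to 560 in the mutant and from 790 to 1243 in wild type. Of 12 meiocyte markers 6 were measured, 2 of them above and 4 below wild type, with a median of -0.22 and summed intensities from 162 to 205 in the mutant and from 172 to 191 in wild type. SDS, a meiotic cyclin gene of this list, stood at the floor on 4 of the 6 arrays. MND1, a recombination gene, had every mutant array above wild type (log2 difference 0.65 ± 0.28, SE, limma adjusted p = 0.386 in the filtered test). SPO11-1 and SPO11-2 were too dim for that test, and their SE and adjusted p come from the fit over all 22746 probe sets. SPO11-1 differed by 0.28 ± 0.35 (limma adjusted p = 0.845). The 4 below wild type were SPO11-2 at -0.95 ± 0.37 (SE, limma adjusted p = 0.504), SDS at -0.30, RCK at -0.25 and ZYP1b at -0.18. SPO11-2 was at the floor on 2 arrays, mutant 1 and mutant 4, so the size of its difference depended in part on the floor. Its groups overlapped, with 29.2 on mutant array 5-2 and 26.4 on wild-type array 6. Both green tissue markers measured, of 4, were above wild type, LHCB4.1 by 0.86 ± 0.33 and RCA by 0.58 ± 0.30 (SE, limma adjusted p = 0.311 and 0.502), with summed intensities from 807 to 1171 in the mutant and from 478 to 812 in wild type. The 2 measured of 6 markers of other floral organs, INO and SPT, differed by 0.55 ± 0.34 and 0.09 ± 0.26 (adjusted p = 0.601 and 0.95). No marker in these lists was at the floor on all 6 arrays. Their part in the KNS4 and INP1 values was not tested.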

How the data were processed

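The deposited table gives 1 intensity per probe set and array on a linear scale, as judged from the values themselves. The authors' probe summary, background correction and software were not given in the sources used here. Because array medians differed by 0.323 on the log2 scale, more than a limit of 0.2, each array was multiplied by a factor from 0.897 to 1.12. Values under a floor of 16 were set to it before taking log2. Groups were compared in R 4.3.3 with limma 3.58.1 (lmFit, eBayes, Benjamini-Hochberg, no covariate), over the 15164 probe sets left after the dimmest 1 in 3 by mean over all arrays were removed. Over all 22746 probe sets limma's prior had 0.73 degrees of freedom, against 5.39, and that fit served for INP1 and the other listed genes too dim for the filter. The procedure was tested on simulated data in which every planted change was larger than the KNS4 difference. That test therefore does not show how often a change of the KNS4 size would be called.

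Of 22746 probe sets, 13513 had 1 gene in the platform annotation, 503 several and 8730 were unnamed here; 13436 matched RefSeq's TAIR10.1 annotation. Genes named are the members, every measured gene of the pathway and marker lists, and for each member the 5 probe sets with the highest Pearson's r. Where several marker genes were measured, examples are given. The members, lists and test were chosen with earlier results of these data known. The files name no genome build, so no coordinates are given, and protein and promoter sequences were not used here.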

Additional observations from a re-analysis of the deposited data

How the results depend on the processing

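KNS4 kept its direction and stayed uncalled under all 13 alternatives run, with log2 differences from 0.42 to 0.69 (limma adjusted p from 0.233 to 0.737). INP1 kept its direction in 10 of 11, and without mutant replicate 5-2 its difference was -0.47 (adjusted p = 0.678); it was 0.08 with a floor of 64, and its range when leaving out an array was -0.47 to 0.68. INP1 was too dim for both filters on dim probe sets and has no value with them. The count of called probe sets also varied with the processing. Against 311 in the filtered test, of which 21.9% were higher, limma called 141 on the intensities as deposited (54 higher and 87 lower, 38.3% higher), 198 after quantile normalization, 3 with a floor of 64 and 527 with a mean-variance trend, and from 32 to 534 when an array was left out. Against 3 over all probe sets, it called 0 with the trend (2134 at unadjusted p under 0.05) and from 0 to 4 without an array (from 1909 to 2773 at unadjusted p under 0.05 in the 5 tests that called 0); the cause was not tested. No paired analysis was possible because the groups share fewer than 2 replicate numbers. Signal over background limits INP1, with 3 of its 6 values at the floor.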
